A study of Mus musculus with 66 samples.

Results

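The genes described here encode heterotrimeric G protein subunits, regulators of G protein signalling, adenylyl cyclases, phosphodiesterases and protein kinase A subunits. They were chosen by symbol: every gene whose name begins with Gna, Gnb, Gng, Rgs, Adcy, Pde or Prka was taken, except Gnb1, Rgs2, Rgs5, Rgs9 and Pde10a. A probe set had to reach the 40th percentile of mean signal over all probe sets, a log2 level of 5.10, and the brightest probe set stood for its gene. Of 100 such genes on the array, 77 passed, out of 13196 genes tested. The other 23 lay below that level, among them the retinal transducin genes Gnat1 and Gnat2 and the rod and cone phosphodiesterases Pde6a and Pde6c. The members nearest the limit were Gng8 at 5.11, Rgs16 at 5.51 and Adcy4 at 5.51, and the nearest genes left out were Gna15 at 5.08, Pde6b at 5.01 and Gnb1l at 5.00. Choice by name also brought in genes that work elsewhere. These are the 6 AMP-activated protein kinase subunits, the mitochondrial enzyme Pde12, the scaffold Pde4dip and the prenyl-binding protein Pde6d. PACAP (Adcyap1) and its receptor (Adcyap1r1) also entered by name: they raise cyclic AMP but are not cyclases.

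The study profiled the medial prefrontal cortex of male mice aged 10 to 12 weeks on 66 Affymetrix mouse arrays, each made from pooled tissue of 4 to 5 animals. Mice received ethanol at 1.8 g/kg or saline by intraperitoneal injection. Restraint for 15 minutes and a 10 minute light-dark test followed for every mouse, those given saline included, and tissue was taken 4 hours after the injection. Ethanol and saline arrays numbered 27 each in BXD recombinant inbred mice, 1 per treatment in each of 27 strains, 3 each in DBA/2J and 3 each in C57BL/6J, the strains from which the BXD lines descend. Values are log2 signals, on which a difference of 1 is a doubling. Each BXD strain had 1 array per treatment, and its ethanol effect was taken within strain.

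A G protein relays the signal of a membrane receptor. Receptors load the alpha subunit with GTP, and the alpha subunit and the beta-gamma pair then act on targets until the GTP is cleaved, a step that RGS proteins speed up. Stimulatory alpha subunits raise and inhibitory ones lower the output of adenylyl cyclases, which make cyclic AMP. Cyclic AMP releases the catalytic subunits of protein kinase A from its regulatory subunits, and phosphodiesterases end the signal. In the prefrontal cortex the pathway acts downstream of dopamine, noradrenaline, opioid and cannabinoid receptors.

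Array medians lay between 5.67 and 5.77, array SDs between 2.06 and 2.17, and no 2 arrays were copies of each other, the highest correlation being 0.997. The first principal component of the arrays held 14.7% of the variance and followed array SD, with Pearson's r of 0.70 and a Spearman rank correlation of 0.65 in size over 66 arrays (permutation p = 1e-05 for each, the smallest that 100000 resamples give), and r was 0.65 without the 2 farthest arrays. Mean signal of 9 cortical excitatory neuron markers lay between 9.54 and 9.88 on all BXD arrays. Of 14 listed striatal markers 10 were tested, and their mean lay between 7.35 and 7.71. Each array averages its pooled animals, so the spread between arrays is a spread between pools. In bulk tissue fewer cells of a type and less RNA per cell cannot be told apart.

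Protein kinase A targets include the transcription factor CREB, which binds the cyclic AMP response element TGACGTCA or its core TGACG. Start regions are shown for Rgs8 and Rgs12, the members that differed between DBA/2J and C57BL/6J after both treatments, and for Adcyap1, whose level was the most alike between the 2 arrays of a BXD strain. Each window runs from 250 bases before to 50 after a RefSeq start site on GRCm38.p6, all on the plus strand, and capitals mark TGACG or its reverse complement CGTCA. Rgs8 has 3 listed windows, Rgs12 has 2 and Adcyap1 has 2. The windows of Rgs8 and Rgs12 that are not shown lack the core, and the Adcyap1 windows overlap at the same core. For each gene a window holding the core is shown, at chr1:153652787-153653086 for Rgs8, chr5:34998828-34999127 for Rgs12 and chr17:93198918-93199217 for Adcyap1.
Rgs8: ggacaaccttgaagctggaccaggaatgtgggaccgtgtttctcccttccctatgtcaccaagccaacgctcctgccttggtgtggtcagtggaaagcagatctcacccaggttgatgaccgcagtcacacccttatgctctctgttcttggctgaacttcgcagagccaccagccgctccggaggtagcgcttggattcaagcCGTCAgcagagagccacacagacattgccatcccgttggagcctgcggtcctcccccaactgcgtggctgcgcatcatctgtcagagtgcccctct
Rgs12: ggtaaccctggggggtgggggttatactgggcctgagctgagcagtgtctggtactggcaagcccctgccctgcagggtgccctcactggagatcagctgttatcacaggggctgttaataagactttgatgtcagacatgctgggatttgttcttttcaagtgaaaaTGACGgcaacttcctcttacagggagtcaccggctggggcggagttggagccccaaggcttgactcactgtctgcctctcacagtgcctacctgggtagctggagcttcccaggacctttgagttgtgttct
Adcyap1: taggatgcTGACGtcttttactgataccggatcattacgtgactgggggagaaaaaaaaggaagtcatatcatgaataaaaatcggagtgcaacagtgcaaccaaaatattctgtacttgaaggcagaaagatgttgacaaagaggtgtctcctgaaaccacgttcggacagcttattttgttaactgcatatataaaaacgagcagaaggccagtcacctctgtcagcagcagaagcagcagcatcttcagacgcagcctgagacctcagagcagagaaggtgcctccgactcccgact
Windows were listed for 63 of the 77 members. TGACG or CGTCA stood in 30 of 114 member windows, a share of 26.3%, against 20.8% of all 32851 windows. By gene, 25 of 63 members held it in at least 1 window (39.7%), against 23.05% of all 27025 genes listed, and a gene with more windows has more chances to hold it. The full element TGACGTCA stood in a window of 1 of 63 members (1.59%), Prkar1a, a regulatory subunit of protein kinase A, against 2.03% of all genes. A match says only that these letters are present.

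Ethanol left no member past the threshold in the BXD strains. In limma with strain as a block, 0 of 77 members had an adjusted p below 0.05, against 0.00758% of all genes. At an unadjusted p below 0.05 there were 4 members, against 4.93% of all genes. The differences of the 77 members ran from -0.11 to 0.10 on the log2 scale, with a median of -0.01 for the members and -0.01 for all genes. Differences were positive for 34 members and negative for 43. The 95% intervals of all 77 lay between -0.21 and 0.23, so each excluded a change of 0.5 either way.

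**Figure D1:**
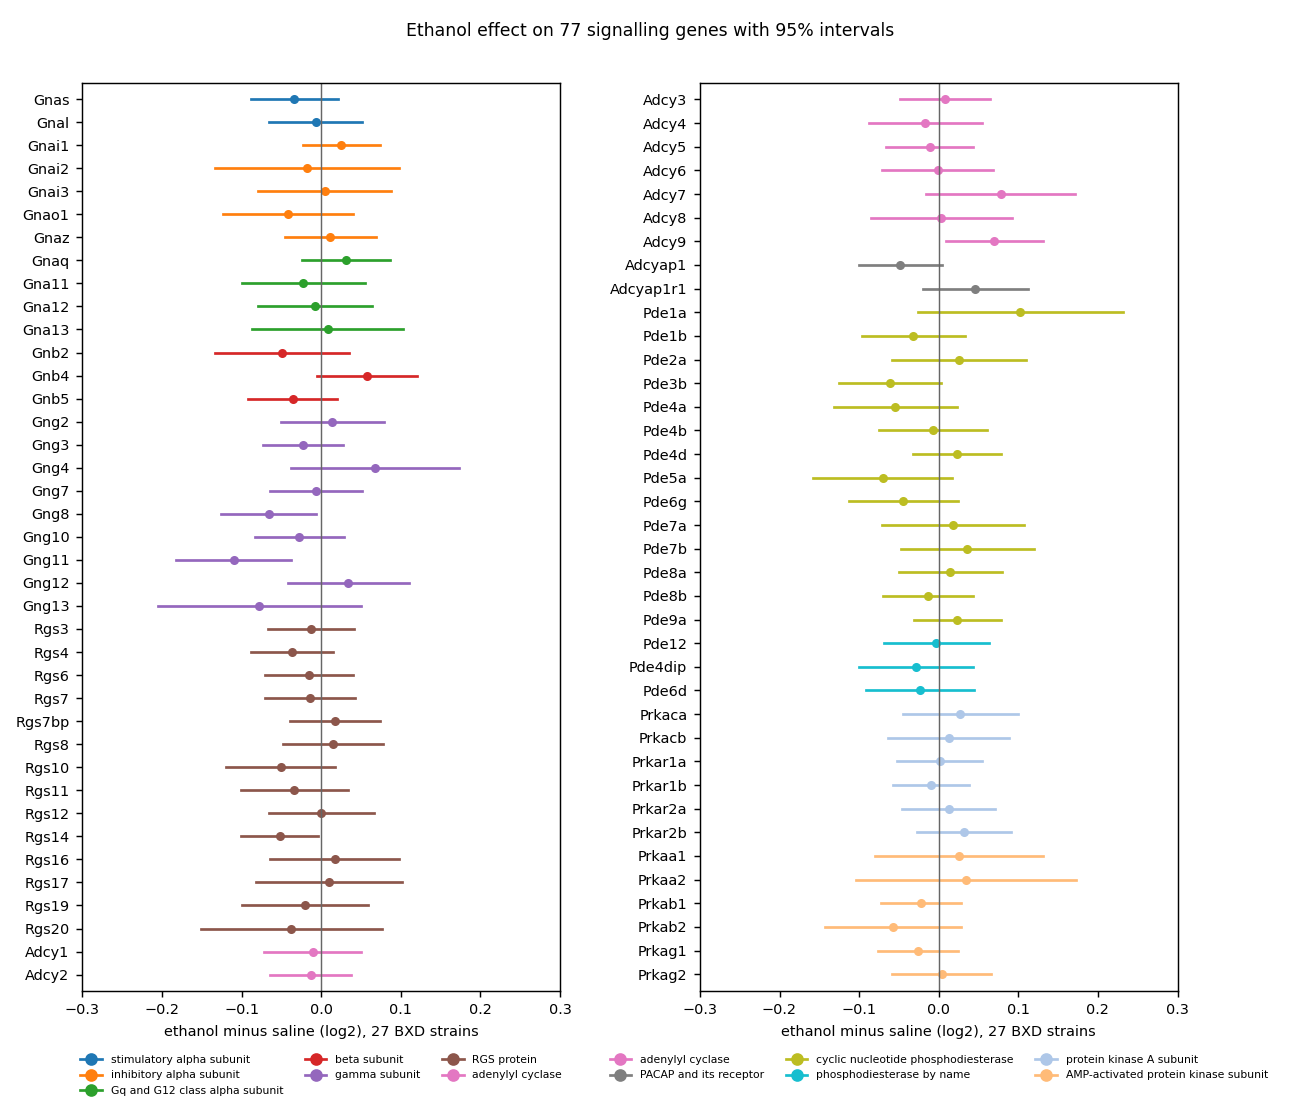
Ethanol minus saline difference (log2, x axis) of each of the 77 genes over 27 BXD strains. Points are limma estimates and lines their 95% intervals, coloured by role. Every line lies between -0.21 and 0.23 and most cross 0.

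Among the transducers, Gnas encodes the general stimulatory alpha subunit and Gnal the form that couples dopamine and adenosine receptors to cyclase in striatum. Gnas had a lowest, median and highest level of 12.5, 12.8 and 12.9 on the ethanol BXD arrays, against 12.6, 12.8 and 12.9 on the saline arrays. The groups overlapped throughout, and the difference was -0.03 (SE 0.03, adjusted p = 0.957, lower in 14 of 27 strains). Gnal differed by -0.01 (SE 0.03, adjusted p = 0.988). The 5 inhibitory alpha subunits, which include Gnao1, an abundant alpha subunit of brain, had a median difference of 0.00 and intervals between -0.13 and 0.10. The 4 alpha subunits of the Gq and G12 classes, the first of which acts on phospholipase C, had intervals between -0.10 and 0.10.

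The smallest p of the module belonged to Gng11, a gamma subunit. Its lowest, median and highest levels were 7.17, 7.48 and 7.81 on the ethanol BXD arrays, against 7.27, 7.57 and 8.07 on the saline arrays. The groups overlapped over most of their range, and the ethanol array was the lower of the pair in 18 of 27 strains. The difference was -0.11 (SE 0.04, 95% interval -0.18 to -0.04), with an adjusted p of 0.707. In DBA/2J, Gng11 stood at 7.67, 7.43 and 7.75 after ethanol, against 7.32, 7.40 and 7.59 after saline, so the BXD direction was not repeated there. Gng8, another gamma subunit and the dimmest member, differed by -0.07 (SE 0.03, adjusted p = 0.934) in the BXD strains. Gng7, the gamma partner of the Gnal protein in striatum, differed by -0.01 (SE 0.03, adjusted p = 0.989).

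Of 14 genes with Rgs symbols, Rgs7bp included, none passed in the BXD ethanol comparison. Rgs14, whose product also binds Ras-family GTPases, differed by -0.05 (SE 0.02, adjusted p = 0.957) and was lower after ethanol in 18 of 27 strains. Rgs4, a regulator of Gi and Gq signalling that is abundant in cortex, differed by -0.04 (SE 0.03, adjusted p = 0.957). The differences of all genes with Rgs symbols lay between -0.05 and 0.02.

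Adenylyl cyclases gave the same outcome. Adcy9 differed by 0.07 (SE 0.03, 95% interval 0.01 to 0.13, adjusted p = 0.934) and was higher after ethanol in 18 of 27 strains. Adcy7, the cyclase isoform whose activity is potentiated by ethanol in transfected cells, had the group's largest difference, 0.08 (SE 0.05, adjusted p = 0.957). Adcy1, a calcium-stimulated cyclase, differed by -0.01 (SE 0.03, adjusted p = 0.981), and Adcy5, the main striatal cyclase, by -0.01 (SE 0.03, adjusted p = 0.975).

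Phosphodiesterases and protein kinase A subunits also stayed on the other side of the threshold. Pde3b, which is inhibited by cyclic GMP, differed by -0.06 (SE 0.03, adjusted p = 0.957). The cyclic AMP-specific Pde4b differed by -0.01 (SE 0.03, adjusted p = 0.989) and the calmodulin-dependent Pde1b by -0.03 (SE 0.03, adjusted p = 0.957). Prkaca, the alpha catalytic subunit of protein kinase A, differed by 0.03 (SE 0.04, adjusted p = 0.964). Prkar1b, a neuronal regulatory subunit, differed by -0.01 (SE 0.02, adjusted p = 0.976).

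In C57BL/6J the ethanol and saline arrays, 3 each, gave no call among the members (0 of 77, against 0.00758% of all genes). Before adjustment 2 members had a p below 0.05, against 4.98% of all genes. In DBA/2J there was again no call (0 of 77, against 0% of all genes), while 10 members had a p below 0.05 before adjustment, against 12.5% of all genes. Intervals were wider than in the BXD strains: 75 of 77 members in C57BL/6J and 71 in DBA/2J had intervals within 0.5 of 0. The 3 ethanol arrays did not overlap the 3 saline arrays for 6 members in C57BL/6J (7.79%, against 9.85% of all genes) and for 16 members in DBA/2J (20.8%, against 17.9%). Averaged over both strains, 0 members passed (0.0455% of all genes), and 9 had a p below 0.05 before adjustment (8.84%). The difference between the responses of the strains was past the threshold for 0 members (0% of all genes), and 0 had a p below 0.05 before adjustment (8.31%).

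Prkaca had the smallest p in DBA/2J. It stood at 10.28, 10.39 and 10.34 after ethanol, against 9.81, 10.14 and 9.85 after saline. The ethanol arrays were all above the saline arrays, and the difference of 0.40 (SE 0.10) had an adjusted p of 0.159. In C57BL/6J the difference was 0.11 (SE 0.10, adjusted p = 0.922), and the difference between the strains' responses was 0.29 (SE 0.14, adjusted p = 0.597). Prkaca had a further detected probe set, which averaged 9.43 ± 0.09 after ethanol and 9.59 ± 0.15 after saline in DBA/2J (SD, n = 3 each), so the 2 probe sets ran in opposite directions. When the leading component of the residuals was added to the model, the adjusted p of the brightest probe set was 0.0354, the only alternative that gave a call among the members in an ethanol comparison.

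Pde4a, a cyclic AMP-specific phosphodiesterase and a target of rolipram, was next. It stood at 7.97, 7.82 and 7.91 after ethanol in DBA/2J, against 8.28, 8.13 and 8.27 after saline, with no overlap. The difference was -0.33 (SE 0.09, adjusted p = 0.182) in DBA/2J. In C57BL/6J the levels were 7.69, 7.81 and 7.62 after ethanol, against 7.99, 7.76 and 7.92 after saline, which overlapped, and the difference was -0.18 (SE 0.09, adjusted p = 0.922). Over both strains it was -0.25 (SE 0.06, adjusted p = 0.334), and in the BXD strains -0.05 (SE 0.04, adjusted p = 0.957, lower in 19 of 27).

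Adcy2, a cyclase stimulated by beta-gamma subunits, stood at 9.96, 10.03 and 9.96 after ethanol in DBA/2J, against 10.19, 10.20 and 10.26 after saline. These groups did not overlap, and the difference was -0.23 (SE 0.07, adjusted p = 0.234). In the BXD strains Adcy2 differed by -0.01 (SE 0.03, adjusted p = 0.971). Pde7b, a cyclic AMP phosphodiesterase, differed by 0.25 (SE 0.09, adjusted p = 0.307) and Prkag2, an AMP-activated protein kinase subunit, by -0.25 (SE 0.10, adjusted p = 0.319) in DBA/2J, and both changed sign when all detected probe sets of the gene were averaged. Gnal averaged -0.14 (SE 0.06, adjusted p = 0.481) over both strains. In C57BL/6J the 5 smallest p values belonged to Pde4a, given above, and to the calmodulin-dependent Pde1a, at -0.32 (SE 0.14), Gnb5, the beta subunit that pairs with RGS proteins, at -0.17 (SE 0.08), Rgs6 at 0.13 (SE 0.08) and the calcium-stimulated cyclase Adcy8 at -0.17 (SE 0.10), all with an adjusted p of 0.922. After Prkaca, the largest differences between the strains' responses by p were those of Gnai1 (0.23, SE 0.11), Adcy8 (0.29, SE 0.15), Prkab2 (0.25, SE 0.13) and Rgs20 (0.33, SE 0.18), with adjusted p values of 0.597 to 0.612.

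A few members differed between the progenitor strains. On the ethanol arrays 2 of 77 members passed in the test of DBA/2J against C57BL/6J, against 7.23% of all genes, and 12 members had an unadjusted p below 0.05, against 20% of all genes. After saline the strains differed in 4 of 77, against 10.3% of all genes, and 14 members had an unadjusted p below 0.05, against 25.2% of all genes. The 3 arrays of one strain did not overlap those of the other for 18 members after ethanol (23.4%, against 25.1% of all genes) and for 17 after saline (22.1%, against 30.4%). Rgs8 and Rgs12 were past the threshold after both treatments with 1 sign, against 4.52% of all genes. All of these shares were below the background.

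**Figure D2:**
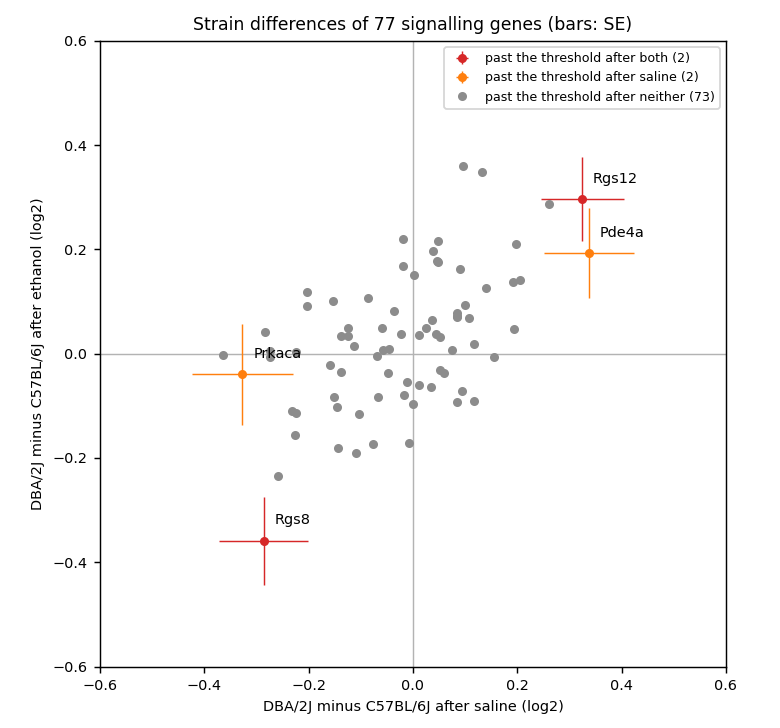
DBA/2J minus C57BL/6J difference (log2) of the 77 genes after saline (x axis) and after ethanol (y axis), with SE bars on the 4 genes past the threshold. Rgs12 lies at 0.32 and 0.30 and Rgs8 at -0.29 and -0.36, while Prkaca and Pde4a passed after saline only.

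Rgs8 belongs to the small RGS proteins that act on Gi, Go and Gq alpha subunits. After ethanol it stood at 8.07, 8.11 and 8.03 in DBA/2J, against 8.53, 8.48 and 8.27 in C57BL/6J. After saline it stood at 7.99, 8.14 and 8.20 in DBA/2J, against 8.42, 8.39 and 8.37 in C57BL/6J. Each DBA/2J array was below each C57BL/6J array, and the differences were -0.36 (SE 0.08, limma adjusted p = 0.0149) after ethanol and -0.29 (SE 0.08, adjusted p = 0.042) after saline. In the BXD strains the lowest, median and highest levels were 7.79, 8.33 and 8.54 after ethanol, against 7.88, 8.24 and 8.54 after saline. Averages of a strain's 2 arrays ran from 7.89 in BXD33 to 8.49 in BXD21, and 11 strains were nearer the DBA/2J mean and 16 nearer the C57BL/6J mean. Ethanol moved Rgs8 by 0.01 (SE 0.03) in the BXD strains.

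Rgs12 is a large RGS protein with PDZ and Ras-binding domains that acts on Gi alpha subunits. After ethanol it stood at 7.60, 7.58 and 7.71 in DBA/2J, against 7.27, 7.43 and 7.32 in C57BL/6J. After saline it stood at 7.72, 7.62 and 7.71 in DBA/2J, against 7.32, 7.46 and 7.29 in C57BL/6J. Each DBA/2J array exceeded each C57BL/6J array, and the differences were 0.30 (SE 0.08, adjusted p = 0.0336) after ethanol and 0.32 (SE 0.08, adjusted p = 0.0157) after saline. The BXD strain effect on Rgs12 did not pass (adjusted p = 0.0695), and its ethanol difference there was 0.00 (SE 0.03). Both strain calls were lost when all 66 arrays entered 1 fit, whose residual spread includes the spread among BXD strains: adjusted p was then 0.217 after ethanol and 0.239 after saline for Rgs8, and 0.213 after ethanol and 0.103 after saline for Rgs12. Over 12 fits that each left out 1 array, Rgs8 passed in 8 after ethanol and in 5 after saline, and Rgs12 in 7 after ethanol and in 8 after saline, with the sign kept in all of them. Over 9 other alternatives, the fit of 66 arrays included, Rgs8 passed in 8 after ethanol and in 7 after saline. Rgs12 passed in 6 of these after ethanol and in 8 after saline. No member passed after ethanol without ethanol DBA/2J replicate 1, ethanol DBA/2J replicate 3 or ethanol C57BL/6J replicate 1.

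**Figure D3:**
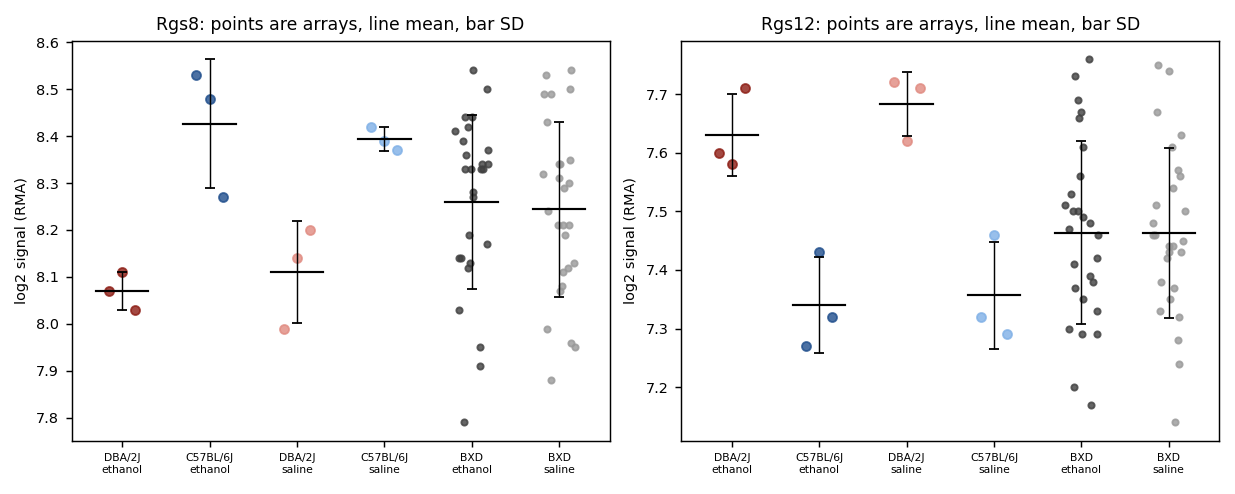
Log2 signal of Rgs8 and Rgs12 on every array by group, with the group mean (line) and SD (bar). Rgs8 is lower and Rgs12 higher in DBA/2J than in C57BL/6J after both treatments, and the BXD arrays span both.

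Oligodendrocyte markers moved with strain in the same arrays. The mean of 8 markers ranged from 8.12 to 8.27 in DBA/2J after ethanol, against 8.47 to 8.73 in C57BL/6J after ethanol. It ranged from 7.88 to 8.26 in DBA/2J after saline, against 8.72 to 8.83 in C57BL/6J after saline. By limma 3 of 8 were lower in DBA/2J after ethanol, with a median of -0.38, and 8 of 8 after saline, with a median of -0.70. Mog, the dimmest of the 8, averaged 5.51 in ethanol DBA/2J and 5.12 in saline DBA/2J. Their part in the Rgs8 and Rgs12 differences was not tested.

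Pde4a and Prkaca passed after saline only. Pde4a was higher in DBA/2J by 0.34 (SE 0.09, adjusted p = 0.02) after saline and by 0.19 (SE 0.09, adjusted p = 0.227) after ethanol, from the array values given above. Prkaca was lower in DBA/2J, with a difference of -0.33 (SE 0.10, adjusted p = 0.0432) after saline, against -0.04 (SE 0.10, adjusted p = 0.876) after ethanol. These contrasts use the same saline DBA/2J arrays as the ethanol comparison in DBA/2J. Over 12 fits that each left out 1 array, the saline difference of Pde4a passed in 9 and that of Prkaca in 4, and over 9 other alternatives they passed in 8 and 4. Without saline DBA/2J replicate 1, no member passed after saline. The further Prkaca probe set was higher in DBA/2J, at 9.59 ± 0.15 in DBA/2J and 9.20 ± 0.17 in C57BL/6J after saline (SD, n = 3 each), and the mean of both gave 0.03 (adjusted p = 0.825).

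Of the 10 central genes of the pathway, none but Prkaca, given above, passed between the progenitor strains. Gnas differed by 0.03 after ethanol and 0.05 after saline, Gnal by 0.01 and 0.08, and Gng7 by 0.07 and 0.08. Adcy1 differed by 0.04 and 0.04, Adcy5 by -0.00 and -0.07, Pde1b by 0.07 and 0.11, Pde4b by 0.01 and -0.05, and Prkar1b by -0.08 and -0.07. Rgs4 had the widest gap of these, -0.08 after ethanol and -0.15 after saline. SEs were 0.07 to 0.09, and no adjusted p was below 0.191.

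The 77 results rest on 1 probe set each, and 46 members had more than 1 detected probe set. The 77 members had 164 detected probe sets in all. Tested one by one among 23199 detected probe sets, a choice made after the values were seen, some dimmer probe sets differed between strains where the brightest did not. The background was 9.16% of these probe sets after saline and 6.53% after ethanol. Probe sequences were not used here, so whether a probe set reads a particular transcript or a particular strain's allele was not tested. Signal differences between strains were therefore not separated from differences in how well a probe reads each allele. This limit also holds for the BXD strain effects and the partner genes given below.

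Gnb4, a beta subunit, was one of these genes. A dimmer probe set stood at 7.46, 7.16 and 7.40 in DBA/2J, against 6.58, 6.62 and 6.60 in C57BL/6J after ethanol, and at 7.36, 7.46 and 7.36 in DBA/2J, against 6.81, 6.94 and 6.81 in C57BL/6J after saline. The differences were 0.74 (SE 0.09, adjusted p = 5.59e-05) after ethanol and 0.54 (SE 0.09, adjusted p = 0.000971) after saline. The brightest Gnb4 probe set overlapped between strains and differed by 0.05 and 0.02. In the BXD strains, averages of the dimmer probe set spanned 6.50 to 7.48, with 15 strains nearer the DBA/2J mean and 12 nearer the C57BL/6J mean.

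Rgs20, which acts on the Gz alpha subunit, showed the other direction. A dimmer probe set of it stood at 6.10, 6.39 and 6.32 in DBA/2J, against 7.02, 6.88 and 6.69 in C57BL/6J after ethanol, and at 6.10, 6.42 and 6.15 in DBA/2J, against 7.10, 6.49 and 6.93 in C57BL/6J after saline. All DBA/2J arrays were lower, with differences of -0.60 (SE 0.14, adjusted p = 0.0196) after ethanol and -0.62 (SE 0.14, adjusted p = 0.0134) after saline. The brightest Rgs20 probe set differed by 0.04 and -0.28 and passed in neither. Further single probe sets of Rgs3 (-0.45 after ethanol, adjusted p = 0.031), Adcyap1 (-0.67 after saline, adjusted p = 0.00535) and Gng4 (0.32 after saline, adjusted p = 0.0415) passed after 1 treatment.

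**Figure D4:**
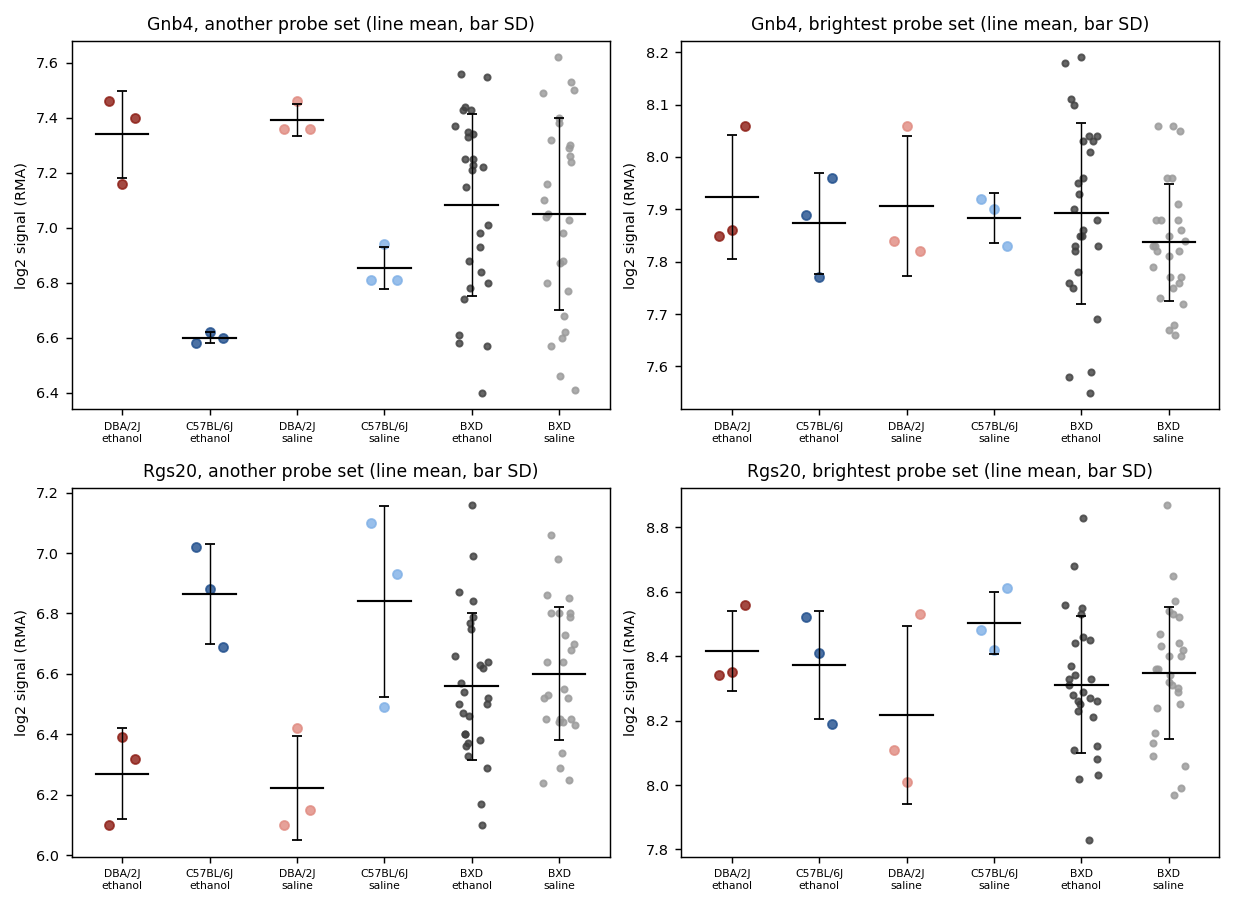
Log2 signal of the brightest and of another probe set of Gnb4 and Rgs20 on every array by group, with the group mean (line) and SD (bar). The other Gnb4 probe set separates DBA/2J from C57BL/6J, while the brightest overlaps.

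Differences among the 27 BXD strains were seen from the 2 arrays of each strain. The intraclass correlation, which is 1 where the 2 arrays of every strain agree and near 0 where strain explains nothing, ranged from -0.45 (Adcy6) to 0.78 (Adcyap1), with a median of 0.23 over the members and 0.18 over all genes. By limma's moderated F test, with treatment in the model, 19 of 77 members (24.7%) differed between strains, against 20.4% of all genes, and 31 had a p below 0.05 before adjustment, against 32.9%. By role these were 1 of 2 stimulatory alpha subunits, 0 of 5 inhibitory alpha subunits and 1 of 4 of the Gq and G12 classes. They were also 0 of 3 beta subunits, 3 of 9 gamma subunits and 5 of 14 genes with Rgs symbols. Downstream they were 1 of 9 adenylyl cyclases, 1 of 2 of PACAP and its receptor and 3 of 14 phosphodiesterase genes. Added to these were 1 of 3 phosphodiesterases by name only, 1 of 6 protein kinase A subunits and 2 of 6 AMP-activated protein kinase subunits. All 8 oligodendrocyte markers also differed between BXD strains. So did 6 of 8 meningeal, 5 of 8 interneuron, 5 of 9 microglia and 5 of 9 cortical excitatory markers. Endothelial and pericyte markers gave 3 of 10 and astrocyte markers 1 of 8. The part of these cell types in the member counts was not tested.

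Adcyap1 encodes PACAP, a peptide whose receptors raise cyclic AMP. Its lowest, median and highest levels were 7.83, 8.16 and 8.53 on the ethanol arrays, against 7.92, 8.21 and 8.58 on the saline arrays. Strain averages ran from 7.87 in BXD05 to 8.56 in BXD19, a 1.61-fold range (adjusted p = 1.23e-05). On this brightest probe set DBA/2J and C57BL/6J differed by 0.01 after ethanol and -0.11 after saline (adjusted p = 0.964 and 0.518). That gap was narrower than the span of the BXD strains on the same probe set. The further Adcyap1 probe set given above differed by more after saline. Its receptor gene Adcyap1r1 had an intraclass correlation of 0.10 and did not pass (adjusted p = 0.471).

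Pde5a, the cyclic GMP-specific phosphodiesterase that sildenafil inhibits, had the widest range among strains. Its lowest, median and highest levels were 5.41, 6.07 and 6.88 on the ethanol arrays, against 5.26, 6.13 and 6.64 on the saline arrays. Strain averages ran from 5.34 in BXD14 to 6.76 in BXD34, a 2.68-fold range, with an intraclass correlation of 0.75 (adjusted p = 1.34e-06). Its second detected probe set gave 0.75 as well. The C57BL/6J and DBA/2J arrays of Pde5a overlapped: 5.95, 6.13 and 6.29 in DBA/2J and 6.13, 5.90 and 6.12 in C57BL/6J after ethanol.

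**Figure D5:**
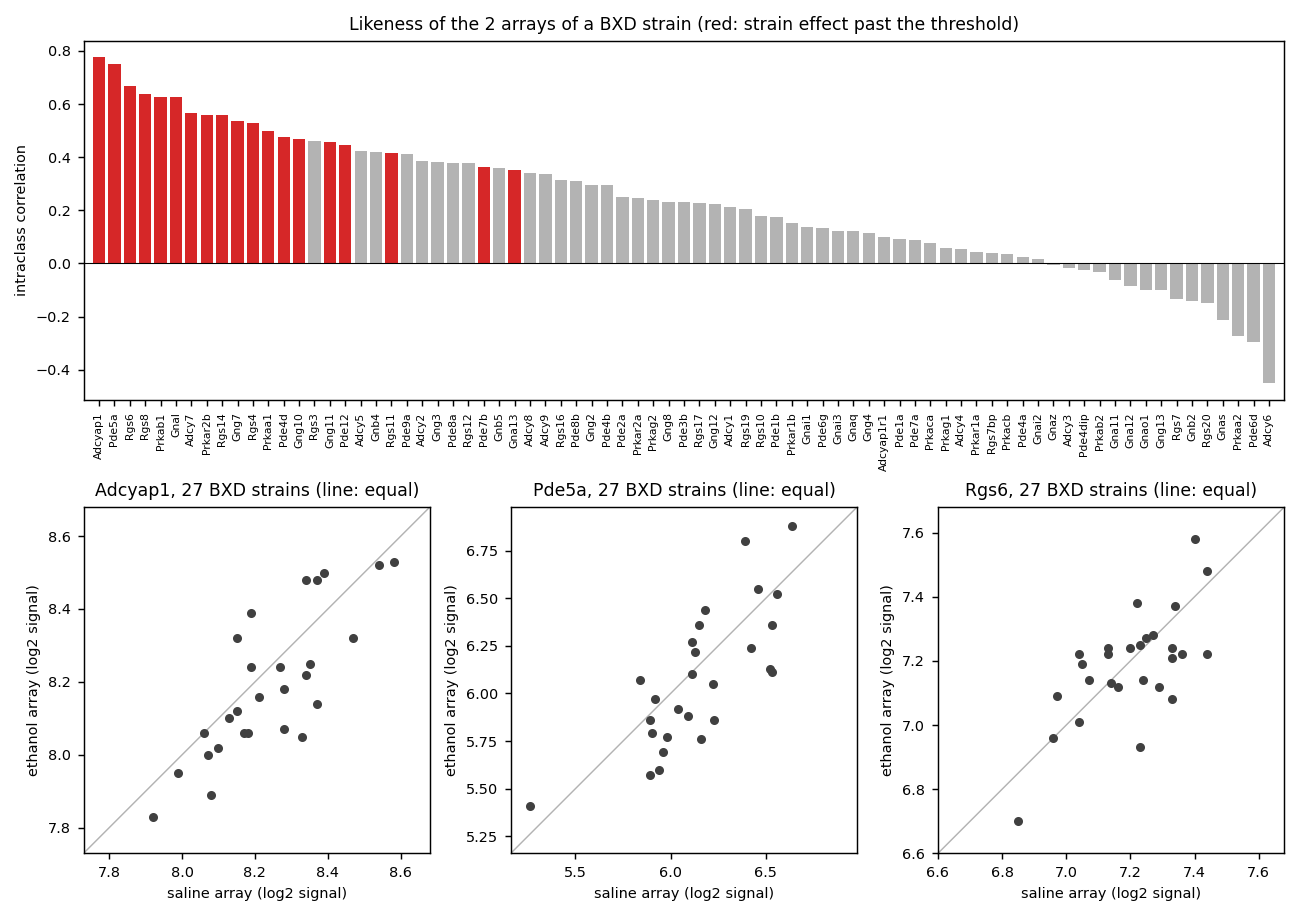
Top, intraclass correlation of the 2 arrays of a BXD strain for each of the 77 genes, with bars in red where the strain effect passed (19 genes). Bottom, level after ethanol (y axis) against level after saline (x axis) in each of 27 strains for Adcyap1, Pde5a and Rgs6, with the line of equal levels.

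The next members by intraclass correlation were Rgs6 at 0.67 (adjusted p = 0.000619), Rgs8 at 0.64 (adjusted p = 0.000631), Prkab1 at 0.63 (adjusted p = 0.0054) and Gnal at 0.63 (adjusted p = 0.00137). Rgs6 pairs with the Gnb5 subunit and turns off Gi and Go signals, and its strain averages ran from 6.78 in BXD27 to 7.49 in BXD20. Gnal averages ran from 9.06 in BXD14 to 9.63 in BXD34, and its second probe set gave 0.68. Adcy7 had 0.57 (adjusted p = 0.00092), with averages from 6.14 in BXD14 to 7.08 in BXD22. Prkar2b, a regulatory subunit of neuronal protein kinase A, had 0.56 (adjusted p = 0.00648), and this call was lost after a repeated quantile normalization (0.39, adjusted p = 0.0776). Gng7 (0.54), Rgs14 (0.56) and Rgs4 (0.53) passed as well.

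At the other end stood Gnas, with strain averages from 12.6 to 12.8, the narrowest span of the module (1.15-fold), and an intraclass correlation of -0.21 (adjusted p = 0.963). Prkar1b (0.15, adjusted p = 0.68), Prkaca (0.08, adjusted p = 0.469), Adcy1 (0.21, adjusted p = 0.317) and Pde1b (0.18, adjusted p = 0.342) did not pass. Adcy5 (0.42, adjusted p = 0.0866) and Pde4b (0.29, adjusted p = 0.144) lay between. None of the inhibitory alpha subunits reached an adjusted p below 0.334.

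Several members are rich in striatum, which borders the dissected region, so member levels were set against the mean of 10 detected striatal markers across the 27 strains, 77 relations per treatment. After ethanol 0 of 77 passed by Pearson's r and 0 by Spearman's rank correlation, and after saline 6 passed by the first and 9 by the second (permutation test, 100000 resamples, adjusted over 77). In saline arrays Gnai2 had Pearson's r of 0.66 (permutation p = 0.0002, adjusted 0.0154) and a Spearman rank correlation of 0.63 (permutation p = 0.00067, adjusted 0.0187), and r was 0.57 without the 2 strains farthest from the median, BXD18 and BXD32. In ethanol arrays Gnai2 had r of 0.44 (permutation p = 0.0238, adjusted 0.229) and a Spearman rank correlation of 0.46 (permutation p = 0.0165, adjusted 0.182). The other positive relations after saline were Gng13 (r = 0.59) and Prkab2 (0.59), and the negative ones were Pde2a (-0.59), Prkacb (-0.58) and Gnai3 (-0.54), with permutation p values adjusted to 0.0231 to 0.0471. By Spearman's rank correlation alone, Rgs14 (0.60, adjusted permutation p = 0.0187), Gnb2 (0.53, adjusted 0.0491) and Pde1b (0.52, adjusted 0.0491) passed after saline. Among members known from striatum, Gng7 had r of 0.27 after ethanol and 0.38 after saline (adjusted permutation p of 0.371 and 0.144), and Adcy5 had 0.40 and 0.28 (0.239 and 0.32). Gnal had r of -0.07 after ethanol and -0.20 after saline, with adjusted permutation p of 0.851 and 0.465. The marker mean itself correlated by 0.40 between the arrays of a strain. Of its 10 markers 5 passed limma's moderated F test for a BXD strain effect, against 20.4% of all genes. Rasd2 was among them, with an intraclass correlation of 0.74. How far the mean and these relations follow striatal tissue, the genotype of a strain or array SD was not tested.

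Partner genes of the pathway were counted from lists of its receptors, G protein handlers, kinase anchors and effectors. In the 5 ethanol tests none of these genes passed. Of 14 tested genes that handle receptors and G proteins, 3 differed between strains after ethanol (7.23% of all genes did) and 4 after saline (10.3% of all genes). Grk5, a kinase that switches off activated receptors, was higher in DBA/2J by 0.92 (adjusted p = 2.82e-06) after ethanol and 0.60 (adjusted p = 0.000255) after saline, and its intraclass correlation in the BXD strains was 0.90. Rasd2, a Ras-like protein that restrains G protein and cyclic AMP signals in striatum, was lower, at -0.46 (adjusted p = 0.00269) after ethanol and -0.51 (adjusted p = 0.00105) after saline. Rasd2 is also 1 of the 10 striatal markers used above. Arrb2, a beta-arrestin, was higher by 0.81 (adjusted p = 0.00112) after ethanol, and Rasd1 lower (-0.43, adjusted p = 0.00623) and the Gi-binding Gpsm1 higher by 0.26 (adjusted p = 0.0453) after saline.

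The other lists are read against the same shares, 7.23% of all genes after ethanol and 10.3% after saline, and hold few genes each. How far the calls of partner genes, those above included, depend on the processing was not examined here. Of 16 tested protein kinase A anchors and inhibitors, 0 passed after ethanol and 3 after saline. The inhibitor peptides Pkib and Pkia were lower in DBA/2J, at -0.82 (adjusted p = 0.00118) and -0.43 (adjusted p = 0.0252), and the mitochondrial anchor Akap1 was higher by 0.41 (adjusted p = 0.0032). Among 8 effectors, 0 passed after ethanol and 1 after saline: Crem, whose gene also encodes a cyclic AMP-induced repressor, was lower in DBA/2J, at -0.46 (adjusted p = 0.00737). Of 15 tested receptors coupled to cyclase, 1 passed after ethanol and 0 after saline: Gabbr1, a GABA-B receptor subunit, was lower, at -0.30 (adjusted p = 0.047). Of 7 genes of the cyclic GMP branch, 0 passed after ethanol and 1 after saline: Gucy1a1, a soluble guanylyl cyclase subunit, was lower, at -0.39 (adjusted p = 0.0411).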

How the data were processed

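RNA of medial prefrontal cortex was hybridized to 66 arrays. The deposited table holds log2 signals of 45037 probe sets; per the submitters' processing notes the authors used RMA in affy, with no version, parameter or array batch stated. RMA quantile-normalizes arrays, so shifts common to most genes are removed. Of the probe sets, 34945 had 1 gene symbol, 932 several and 9160 none, and only the first were named, with 34741 matched to current RefSeq symbols by Entrez gene identifier. Gene differences were fitted with limma 3.58.1 in R 4.3.3, two-sided, with Benjamini-Hochberg adjustment over 13196 genes and a threshold of 0.05. BXD arrays (54) were fitted with strain as a block, which pairs the arrays: residuals of a strain's 2 arrays correlated by a median of 0.44, against -0.02 for arrays of different strains. Progenitor arrays (12) were fitted by group. Replicates are pools, and nothing given says whether pools of a group came from separate batches. The number and pooling of arrays limit precision, and the fits were tested on simulated data with 200 changed genes and independent noise. The progenitor fit called 0% of simulated strain differences of 0.2 and 78.5% of those of 0.5. The BXD fit called 91% of simulated ethanol differences of 0.2 and 99.5% of those of 0.5. A progenitor difference near 0.2 that did not pass is therefore not shown to be absent. Named were the members past the threshold in both strain comparisons, the members past the threshold or with the 5 smallest p values in each ethanol comparison, the 8 highest intraclass correlations among those past the threshold, 10 central pathway genes, and up to 4 partners per list. Members, lists and tests were chosen with earlier results of these data known. Alternatives changed the filter, probe set choice, normalization, variance prior, array weights, a residual component, the arrays fitted, the block and single replicates. Gng5, whose probe sets carry 2 symbols, was not used here.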

Additional observations from a re-analysis of the deposited data

How the results depend on the processing

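Over the alternatives run, 176 counts of members past the threshold stayed within 1.5 times the count reported, and 21 did not. The 176 include counts of the ethanol comparisons, which were 0 as reported and could not fall, so they say little of the strain counts. No member passed in any ethanol comparison under any alternative except the first residual principal component, which gave 1 call in DBA/2J (Prkaca). After saline the strain count was 2 with no filter, 7 with a trended and robust variance prior and 0 with all 66 arrays in 1 fit. After ethanol it was 1 with no filter, 4 with the mean of detected probe sets, 0 with all 66 arrays in 1 fit and 5 with all detected probe sets, an alternative chosen after seeing the data. Leaving out single replicates gave 0 to 5 after saline and 0 to 3 after ethanol. The count was 0 after saline without saline DBA/2J replicate 1, 1 without saline C57BL/6J replicate 1, and 2 without saline DBA/2J replicate 3, saline C57BL/6J replicate 2 or 3, or ethanol DBA/2J replicate 1 or 2. It was 0 after ethanol without ethanol C57BL/6J replicate 1, ethanol DBA/2J replicate 1 or ethanol DBA/2J replicate 3, and 1 without ethanol C57BL/6J replicate 2 or 3. Leaving out single strains gave 12 to 23 members with a BXD strain effect, the lowest without BXD11. With the mean of detected probe sets 4 named values reversed: Pde7b (-0.056) and Prkag2 (0.026) after ethanol in DBA/2J, Prkab2 in the difference between responses (-0.13), and Prkaca between strains after saline (0.031). Of the other values of named members 928 stayed on the same side of the threshold, 44 lost their call and 1 gained one. The 928 include the values of the ethanol comparisons, which had no call to lose. The losses fell on Rgs8, Rgs12, Pde4a and Prkaca between the progenitor strains, and on Prkar2b among the BXD strains. The cause was not tested. In the progenitors, same-numbered ethanol and saline arrays correlated by -0.23 to 0.08 in C57BL/6J and by 0.06 to 0.26 in DBA/2J. Differently numbered arrays correlated by -0.31 to 0.33 over both strains. So few arrays cannot settle whether the numbers pair them, and the main fit did not pair them. The replicate block left the counts at 0 in the ethanol comparisons, 4 after saline and 2 after ethanol. The BXD fit with no replicate block also gave 0. With 3 arrays per group the median SE of a member's ethanol difference was 0.088 in each progenitor strain, against 0.032 in the BXD strains, which limits how small an effect could be called.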
